A study of Mus musculus with 12 samples.

Results

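Transcript levels of 9 genes of the leukaemia inhibitory factor (LIF) pathway were followed in mouse embryonic stem (ES) cells, out of 22416 genes in the deposited count table. They were taken by name: the receptor genes Lifr and Il6st, the kinase gene Jak1, the transcription factor gene Stat3, its feedback inhibitor Socs3, and the target genes Bcl3, Pim1, Pim3 and Gbx2. All 9 were found and all 9 passed the filter on low counts. The cells were eIF2α+/+ (WT) or carried the eIF2α A/A alleles (knock-in, KI), in which the serine phosphorylated by stress kinases is an alanine. Both genotypes were kept for 6 days in serum-free medium, either with LIF alone (LIF) or with LIF together with PD0325901, a MEK inhibitor, and CHIR99021, a GSK3 inhibitor (LIF/2i). LIF was therefore present in all 4 groups, and no group without LIF was analysed here. Each group had 3 libraries. The labels do not say how many cell clones each genotype stands for or whether the replicates came from separate cultures, so the p-values measure the spread between these libraries, which may be technical.

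LIF binds its receptor Lifr, which pairs with Il6st, the signalling subunit shared by the interleukin-6 family. Jak kinases bound to the receptor phosphorylate Stat3, which enters the nucleus and switches on target genes that help mouse ES cells to renew themselves. Socs3 is among the first of these targets and blocks the receptor and its kinases, which closes a negative feedback loop. The study asked about the role of eIF2α phosphorylation in pluripotent cells, and the comparisons below ask how the genes of this pathway stood in each genotype and medium.

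Library totals ran from 2307219 to 9713857 counts. Gbx2 had 22 to 281 counts per library, and the other 8 genes had 117 to 2535. Replicates 1 and 3 of WT LIF showed no more than sampling noise between them (chi-square per degree of freedom 0.858). They entered as 1 sample, their mean, which gives n = 2 for WT LIF and n = 3 for the others. All 9 ES cell markers (such as Pou5f1 and Nanog) were above 0 in all 11 samples, with a sum of 2738 to 4074 CPM (a library-scaled count, with TMM scaling between libraries). The 8 fibroblast markers summed to 10.7 to 13.4 CPM in WT LIF/2i, 26.3 and 392 in WT LIF (the latter in replicate 2), 19.1 to 30.4 in KI LIF/2i and 89.0 to 137 in KI LIF. The fibroblast marker Lum was at 0 in every sample except the mean of WT LIF replicates 1 and 3. The 8 primitive endoderm markers summed to 86.2 to 123 CPM in WT LIF and to 7.41 to 31.0 elsewhere. The 7 trophectoderm markers summed to 292 to 309 CPM in WT LIF and to 88.0 to 217 elsewhere. Y-linked genes summed to 44.8 to 261 CPM in the WT libraries and to 1.43 to 41.6 in the KI libraries, so the alleles cannot be told apart from other differences between the WT and KI cells. Eif2s1, which encodes eIF2α, did not pass the test between genotypes in LIF/2i (adjusted p = 0.0791) or LIF (0.748), and gene counts do not show a codon change.

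Promoter sequence is given for 3 of the genes: the feedback inhibitor, the gene that passed the test and the gene that varied most between samples. Each line is the 250 bases before the RefSeq start, on the gene's own strand (GRCm38.p6), for Socs3 at chr11:117969367-117969616, Bcl3 at chr7:19822756-19823005 and Gbx2 at chr1:89931177-89931426, all on the minus strand. Capitals mark a match to TTCNNNGAA, the palindromic half-site pair that STAT proteins bind, or to CTTTGNT, searched on both strands. CTTTGNT, with N for any base, is a loose form of the core read by TCF factors downstream of GSK3. These motifs do not overlap in the windows.
Socs3: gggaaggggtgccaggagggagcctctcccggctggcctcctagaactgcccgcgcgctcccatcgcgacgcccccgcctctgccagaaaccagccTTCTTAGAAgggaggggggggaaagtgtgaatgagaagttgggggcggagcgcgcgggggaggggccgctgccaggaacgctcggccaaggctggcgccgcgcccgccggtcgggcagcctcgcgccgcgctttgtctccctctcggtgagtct
Bcl3: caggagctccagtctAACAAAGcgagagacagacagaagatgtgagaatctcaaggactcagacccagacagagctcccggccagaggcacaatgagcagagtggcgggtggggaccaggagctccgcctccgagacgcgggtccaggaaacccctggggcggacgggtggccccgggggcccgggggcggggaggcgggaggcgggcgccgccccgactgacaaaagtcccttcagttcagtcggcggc
Gbx2: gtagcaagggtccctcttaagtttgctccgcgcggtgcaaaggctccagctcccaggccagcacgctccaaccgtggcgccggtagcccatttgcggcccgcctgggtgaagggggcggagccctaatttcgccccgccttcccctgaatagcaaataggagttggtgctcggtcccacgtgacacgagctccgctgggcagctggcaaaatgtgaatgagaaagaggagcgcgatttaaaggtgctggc

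Of the 11 RefSeq promoter windows of the 9 genes, 1 held the STAT letters and 2 held the TCF letters. TTCTTAGAA begins 154 bases before the Socs3 start. AACAAAG, which reads CTTTGTT on the other strand, begins 235 bases before the Bcl3 start, and CTTTGCT begins 144 bases before the second Pim1 start. Among all 32851 RefSeq promoter windows of this length, 7.02% held TTCNNNGAA and 16.0% held CTTTGNT. A match describes the letters and is not a binding site, and no match says only that the letters are not in this window. The RefSeq start of Socs3 lies 180 bases upstream of the start of the transcript that was counted, and the Lifr starts lie 24781 and 13811 bases upstream. The second Pim1 start, at 29493085, lies inside the span of the counted transcript, which begins at 29490753. The window with CTTTGCT (29492835 to 29493084) therefore also lies inside that span.

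Bcl3 was the only one of the 9 genes to pass the test in any comparison. Its level in LIF was 0.50 times that in LIF/2i in both genotypes. Between media, 13% of all tested genes passed in WT cells and 9.05% in KI cells. The log2 differences of the receptor, kinase and Stat3 transcripts lay between -0.31 and 0.17 in the 4 comparisons, and none of the 9 genes passed between KI and WT cells in either medium. Gbx2 and Socs3 were higher in every KI LIF sample than in every KI LIF/2i sample, without passing the test. Of all tested genes, 27.2% were free of overlap between these groups, in either direction. In bulk RNA, fewer cells of a type and less RNA per cell cannot be told apart.

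**Figure D1:**
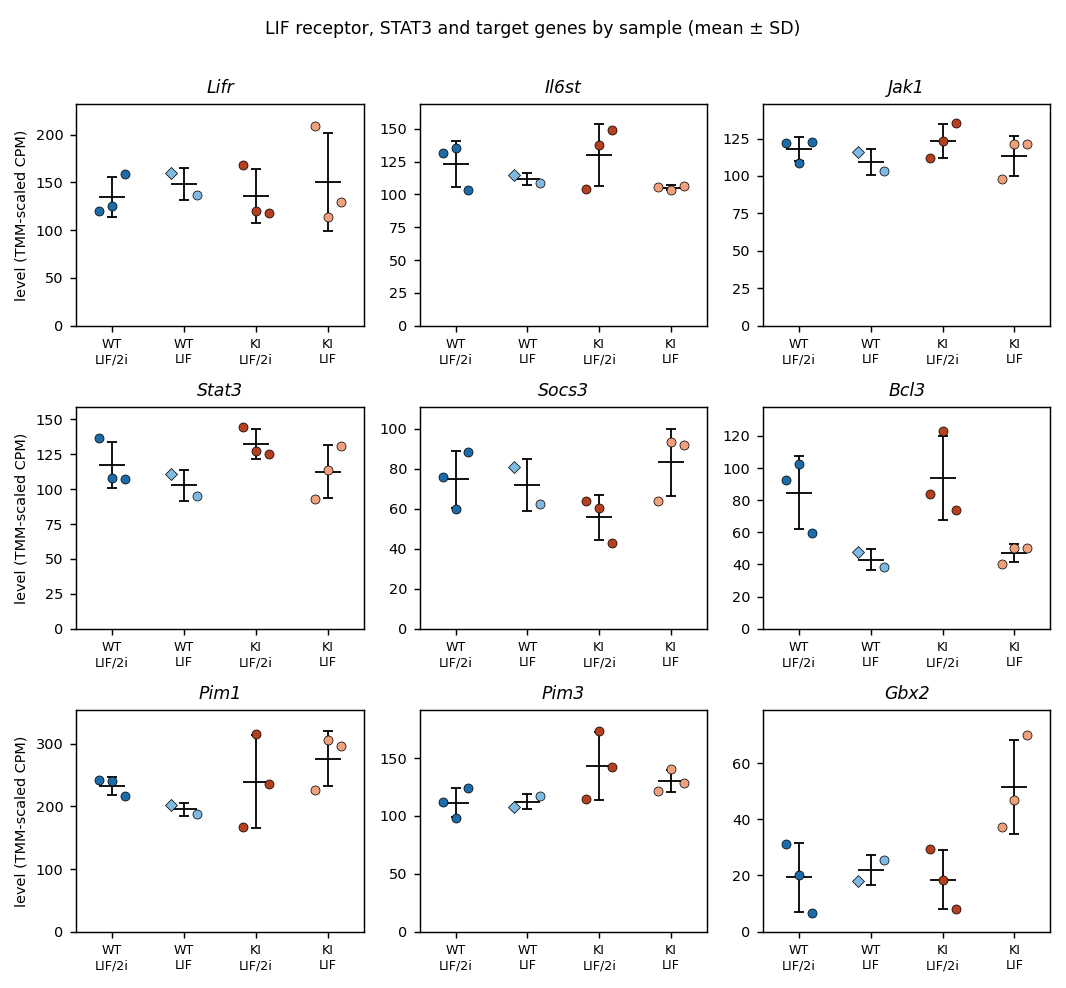
Level of each of the 9 genes in TMM-scaled CPM (y axis, from 0) in the 4 groups (x axis). Points are samples, the diamond is the mean of WT LIF replicates 1 and 3, and horizontal lines with bars are the mean and SD. Bcl3 is lower in LIF than in LIF/2i in both genotypes, and Gbx2 is highest in the 3 KI LIF samples.

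The genes were first ordered by their level per length of coding sequence, before any comparison. Scaled to CPM per kb and averaged over the 11 samples, Pim1 stood highest at 255, followed by Pim3 at 128 and Socs3 at 106. Bcl3 (51.5), Stat3 (50.8), Lifr (43.3) and Il6st (42.9) lay close together. Jak1 averaged 33.7 and Gbx2 27.1 CPM per kb. The SD over the samples was 51.5 for Pim1, 20.9 for Bcl3 and 3.04 for Jak1. Neighbours from Bcl3 to Il6st in this order did not differ beyond their spread. The ranges of Pim3 (101 to 177) and Socs3 (63.2 to 139) also overlapped. That of Gbx2 (6.41 to 66.9) covered that of Jak1 (28.3 to 39.1) and overlapped those of Bcl3, Stat3, Lifr and Il6st. Each level is read from the coding sequence of 1 transcript per gene.

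Spread between samples ordered the genes differently. Jak1 varied least, with a coefficient of variation of 9.02% over the 11 samples, against a median of 18.4% for 3262 genes of similar level. Il6st and Stat3 also lay under the median of genes of similar level, at 14.2% each against 18.3% and 18.4%. Bcl3, at 40.6%, was above its median of 19.6%. Gbx2 had 64.3% against 23.9%, and its highest sample was 10.4 times its lowest.

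**Figure D2:**
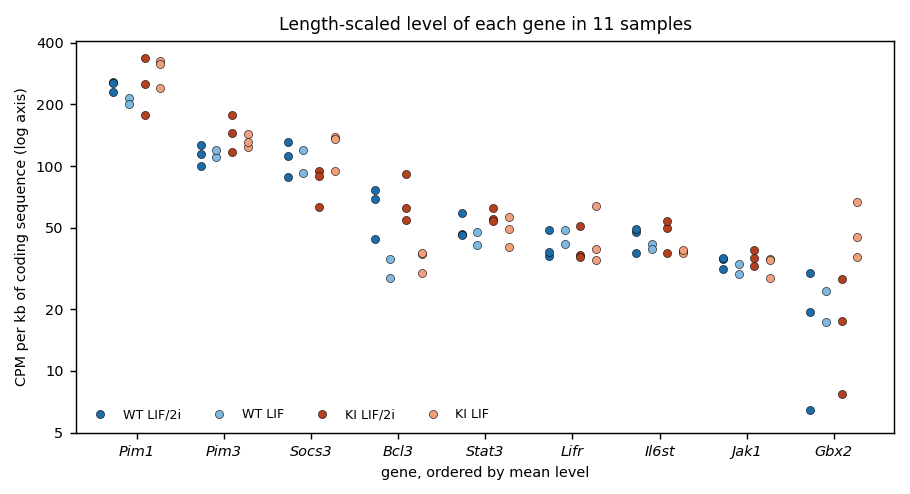
Level of each gene in CPM per kb of coding sequence (y axis, log scale), ordered by its mean (x axis), with 1 point per sample and colours for the 4 groups. Pim1 lies highest, Jak1 has the narrowest range and Gbx2 the widest.

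Lifr, the LIF-binding receptor chain, is encoded on chromosome 15 (7154353 to 7197489, plus strand, GRCm38, for the transcript counted). Its level was 119.9, 125 and 159 CPM in WT LIF/2i, 159.8 and 137 in WT LIF, 168, 120.4 and 118 in KI LIF/2i and 209, 114 and 129 in KI LIF. The groups overlapped in all 4 comparisons, and KI LIF replicate 1 was the highest sample. The log2 fold change of KI against WT was 0.01 ± 0.23 (SE) in LIF/2i and 0.02 ± 0.25 in LIF, with 95% intervals of -0.48 to 0.50 and -0.53 to 0.57.

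Il6st, the signal-transducing partner chain (chromosome 13, 112464070 to 112510086, plus strand), stood at 131, 135 and 103 CPM in WT LIF/2i and at 115 and 109 in WT LIF. In KI cells it was 104, 138 and 149 in LIF/2i and 106, 103 and 107 in LIF. The 3 KI LIF samples lay close together and just below both WT LIF samples. The difference between media in KI cells was -0.31 ± 0.16 (SE) on the log2 scale (95% interval -0.65 to 0.03, adjusted p = 0.263, edgeR), and in WT cells -0.14 ± 0.17.

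Jak1, the tyrosine kinase that phosphorylates the receptor chains and Stat3, lies on chromosome 4 (101152367 to 101265282, minus strand). Its 11 samples ran from 98.0 CPM in KI LIF replicate 1 to 135 in KI LIF/2i replicate 3, a ratio of 1.38. All groups overlapped. The 4 log2 differences between genotypes or media lay between -0.12 and 0.07, and the 95% interval was widest towards lower levels for LIF against LIF/2i in WT cells, at -0.43 to 0.22.

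Stat3, the transcription factor that carries the signal to the nucleus (chromosome 11, 100886810 to 100939540, minus strand), was at 136, 108 and 107 CPM in WT LIF/2i and at 111 and 94.7 in WT LIF. KI cells had 144, 127 and 125 in LIF/2i and 92.8, 113 and 131 in LIF. The groups overlapped in every comparison. Stat3 was lower in LIF by -0.19 ± 0.18 (SE) in WT and -0.24 ± 0.16 in KI cells on the log2 scale, with 95% intervals of -0.57 to 0.19 and -0.58 to 0.10. Neither difference exceeded the spread between replicates (adjusted p = 0.533 and 0.405, edgeR). These are transcript levels, and the phosphorylation of Stat3 was not measured.

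Socs3, the feedback inhibitor whose promoter is printed above, has its coding sequence in 1 exon on chromosome 11 (117966079 to 117969186, minus strand). It was at 75.8, 60.0 and 88.5 CPM in WT LIF/2i and at 80.9 and 62.6 in WT LIF. The KI values were 63.8, 60.6 and 42.6 CPM in LIF/2i against 64.0, 93.7 and 91.8 in LIF. The 2 media overlapped in WT cells and did not overlap in KI cells, where the closest values were 64.0 and 63.8. The KI difference was 0.58 ± 0.21 (SE, log2; 95% interval 0.11 to 1.04), a ratio of 1.49, and did not pass after adjustment (adjusted p = 0.121, edgeR). In WT cells it was -0.05 ± 0.24, and the test of the difference between the genotypes' responses gave 0.63 ± 0.32 (adjusted p = 0.848).

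Bcl3, an atypical IκB family protein that acts as a nuclear cofactor of NF-κB and is switched on by Stat3 in ES cells, lies on chromosome 7 (19808462 to 19822770, minus strand). In WT cells its level was 92.6, 102 and 59.3 CPM in LIF/2i and 47.6 and 38.2 in LIF. In KI cells it was 83.8, 123 and 73.7 CPM in LIF/2i and 40.5, 50.1 and 50.4 in LIF. Every LIF sample was below every LIF/2i sample in both genotypes, and the WT LIF/2i sample at 59.3 came closest. The group means were 84.8 ± 22.6 (SD, n = 3) and 42.9 ± 6.62 (SD, n = 2) CPM in WT cells, and 93.6 ± 26.2 and 47.0 ± 5.61 (SD, n = 3 each) in KI cells. The order of the means was KI LIF/2i, WT LIF/2i, KI LIF, WT LIF, and neighbours of the same medium did not differ beyond their spread.

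Bcl3 fell in LIF against LIF/2i by 0.99 ± 0.27 (SE) on the log2 scale in WT cells (95% interval -1.57 to -0.41, adjusted p = 0.0311) and by 0.99 ± 0.24 in KI cells (-1.51 to -0.48, adjusted p = 0.0229, edgeR's quasi-likelihood test). Both are ratios of 0.50. The difference between these responses was -0.00 ± 0.36 (95% interval -0.78 to 0.77), so responses differing by up to 0.78 on the log2 scale are not told apart. The calls rested on few samples. In WT cells the adjusted p (edgeR) rose to 0.0960 and 0.0945 when LIF/2i replicate 1 or 2 was left out. The WT call was also lost without LIF replicate 2 or the agreeing LIF pair, and either run leaves 1 WT LIF sample. In KI cells the adjusted p rose to 0.0744 for LIF/2i replicate 2 and to 0.0660, 0.0706 and 0.0730 for LIF replicates 1, 2 and 3. The log2 difference stayed between -1.19 and -0.73 in every alternative run. Primitive endoderm markers (86.2 to 123 against 11.3 to 31.0 CPM) and trophectoderm markers (292 to 309 against 126 to 151) were higher in WT LIF than in WT LIF/2i. Fibroblast markers were higher in LIF in both genotypes, most in WT LIF replicate 2. Without WT LIF replicate 2 the WT difference was -0.84, and the markers' part in the result was not tested. The coding sequence of Bcl3 shares 55 of 1344 bases (4.09%) with Gm16175 on the opposite strand, and the treatment of strand is not given in the sources used here.

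Pim1 encodes a serine/threonine kinase that promotes survival and growth (chromosome 17, 29490753 to 29496112, plus strand). It was at 242, 240.2 and 216 CPM in WT LIF/2i and at 203 and 188 in WT LIF. In KI cells it was at 167, 316 and 236 CPM in LIF/2i and at 226, 306 and 297 in LIF. Both WT LIF samples were below all WT LIF/2i and all KI LIF samples, while KI LIF/2i spanned the range of the whole set. KI exceeded WT in LIF by 0.50 ± 0.23 (SE, log2; 95% interval 0.00 to 1.00; adjusted p = 0.462, edgeR). Of its coding sequence, 468 of 939 bases (49.8%) overlap Gm26885 on the opposite strand, so its level is uncertain.

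Pim3, a second kinase of the same family (chromosome 15, 88862186 to 88865726, plus strand), was at 112, 98.5 and 124 CPM in WT LIF/2i and at 108 and 117 in WT LIF. In KI cells it was at 115, 174 and 142 in LIF/2i and at 122, 141 and 129 in LIF. The KI LIF samples lay above both WT LIF samples, and in LIF/2i the genotypes overlapped. The KI to WT log2 difference was 0.37 ± 0.16 (SE; 95% interval 0.02 to 0.71; adjusted p = 0.215, edgeR) in LIF/2i and 0.22 ± 0.18 (adjusted p = 0.730) in LIF.

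Gbx2, a homeobox transcription factor that can sustain ES cell self-renewal when expressed from a transgene, lies on chromosome 1 (89927956 to 89931179, minus strand). It was at 31.3, 20.3 and 6.69 CPM in WT LIF/2i and at 18.04 and 25.6 in WT LIF. In KI cells it was at 29.3, 18.3 and 8.06 CPM in LIF/2i and at 37.4, 46.9 and 69.8 in LIF. The 3 KI LIF samples were the 3 highest of all 11, and the other groups overlapped one another. The lowest library, WT LIF/2i replicate 3, held 22 counts, for which the exact 95% Poisson interval is 4.23 to 10.2 CPM and covers counting error only.

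In KI cells Gbx2 was 2.73 times as high in LIF as in LIF/2i (log2 1.45 ± 0.50 (SE), 95% interval 0.35 to 2.54), which missed the threshold (adjusted p = 0.0983, edgeR). It passed with DESeq2 (adjusted p = 0.0283) and without WT LIF/2i replicate 3 (0.0491) or KI LIF/2i replicate 1 (0.0441). Against WT in LIF the KI difference was 1.23 ± 0.57 (95% interval -0.02 to 2.47, adjusted p = 0.474), and the test of the difference between the genotypes' medium responses gave 1.31 ± 0.75 (adjusted p = 0.871). Of its coding sequence, 522 of 1044 bases (50%) overlap D130058E05Rik on the opposite strand, so reads of the pair cannot be told apart without the strand.

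**Figure D3:**
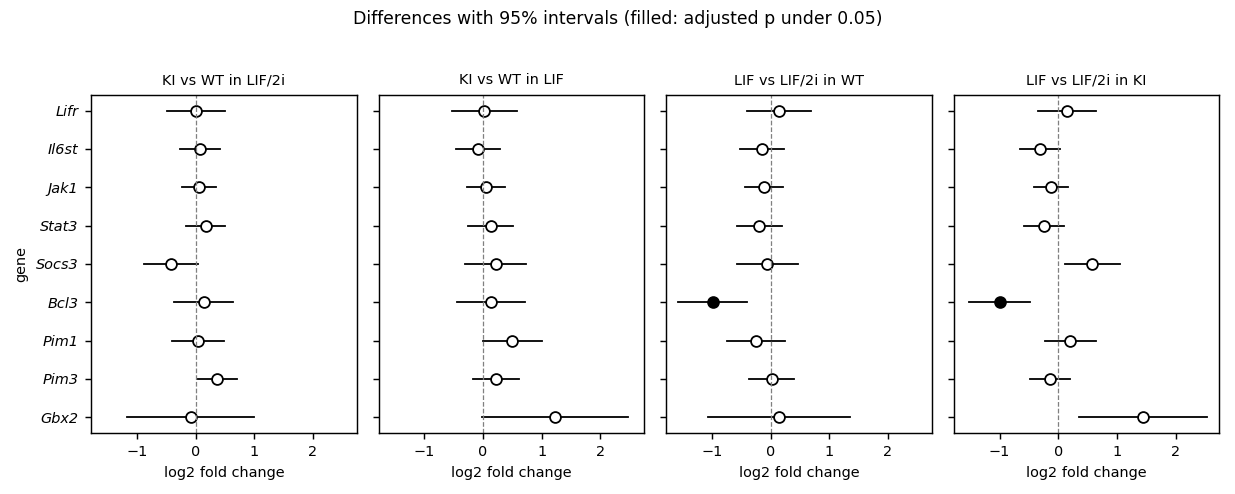
Log2 fold change (x axis) of each of the 9 genes (y axis) in the 4 comparisons, from edgeR, with 95% intervals as bars and filled points for an adjusted p under 0.05. The filled points are Bcl3 in the 2 medium comparisons.

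The calls among the 9 genes were counted beside those of the whole table. Between KI and WT cells in LIF/2i, 0 of 9 passed (edgeR, adjusted p under 0.05), where 2.21% of the 13229 tested genes did; 1 of 9, Pim3, had an unadjusted p under 0.05, against 20.5% of all genes. In no gene of the set were the 2 genotypes free of overlap, against 22.8% of all genes. DESeq2 called 0 of 9 and 6.93% of all genes. The median log2 difference of the set was 0.07, and that of all genes 0.02.

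Between KI and WT cells in LIF, 0 of 9 passed, where 0.144% of all genes did. Pim1 alone had an unadjusted p under 0.05 (10.7% of all genes), and DESeq2 called 0 of 9 (1.69% of all genes). The genotypes did not overlap for 4 of 9 genes (31.8% of all genes): Pim1, Pim3 and Gbx2 were higher and Il6st lower in KI. The median log2 difference was 0.13 for the set and 0 for all genes.

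Between media in WT cells, 1 of 9 genes passed, against 13% of all genes (6.65% lower and 6.3% higher). DESeq2 also called 1 of 9, against 16.7% of all genes. Media did not overlap for Bcl3 and Pim1, both lower in LIF, which is 2 of 9 genes against 48.8% of all genes. The set's median was -0.11 and that of all genes 0.01.

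Between media in KI cells, 1 of 9 passed, against 9.05% of all genes (5% lower and 4.05% higher), and DESeq2 called 2 of 9, Bcl3 and Gbx2, against 12.3%. The media did not overlap for Socs3 and Gbx2, which were higher in LIF, and Bcl3, which was lower, or 3 of 9 genes against 27.2%. The set's median was -0.12 and that of all genes -0.03. The medium comparisons share their samples with the genotype comparisons, so their values are not independent.

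No gene of the set passed the test of a difference in medium response between the genotypes. The interaction was past the threshold for 0 of 9 genes and for 0% of all genes with edgeR, and 0 of 9 had an unadjusted p under 0.05, against 5.98% of all genes. DESeq2 called 0 of 9 and 0.18% of all genes. The interaction of Pim1 was 0.46 ± 0.30 (SE, log2) with a 95% interval of -0.20 to 1.12.

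**Figure D4:**
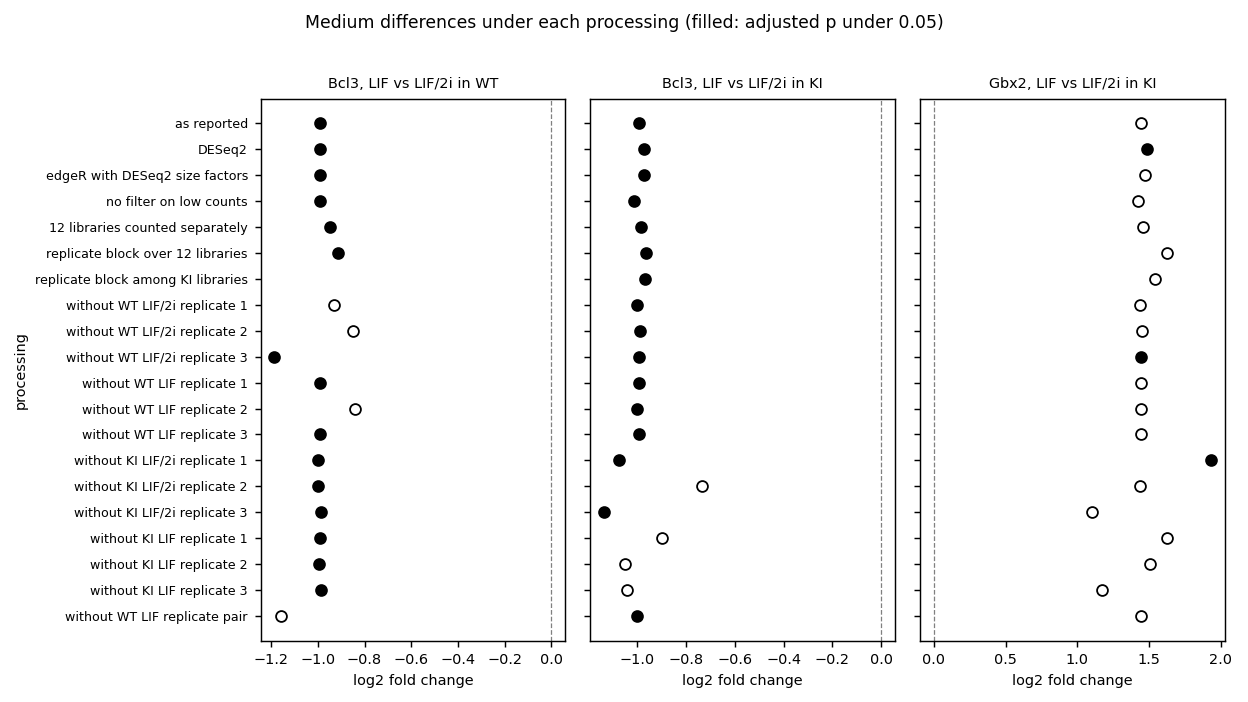
Log2 fold change (x axis) of Bcl3 in WT and KI cells and of Gbx2 in KI cells, LIF against LIF/2i, as reported and under each alternative processing or left-out library (y axis), with filled points for an adjusted p under 0.05. Bcl3 stays below 0 and Gbx2 above 0 throughout, and the fill changes with single libraries.

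Other parts of the signalling chain were read from a list of 35 ligands, receptors, kinases, STATs, adaptors and inhibitors, of which 33 were tested. Osmr and Il11ra1, receptor chains for oncostatin M and interleukin-11, had 13 and 8 counts in all libraries together and were not. No gene of the list passed between genotypes in LIF/2i, in LIF or in the interaction, where 2.21%, 0.144% and 0% of all genes did. Between media, 2 rose and 2 fell in WT cells, and 1 rose and 1 fell in KI cells. That is 4 of 33 genes in WT cells, where 13% of all genes passed, and 2 of 33 in KI cells, where 9.05% did. The list's median log2 difference was -0.16 in WT and 0.03 in KI cells, against 0.01 and -0.03 for all genes.

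The calls fell on receptor chains, a ligand and a STAT. Cntfr, the ligand-binding chain for ciliary neurotrophic factor, which works with Lifr and Il6st, rose in LIF by 2.94 ± 0.74 (SE, log2; adjusted p = 0.0220) in WT and by 2.80 ± 0.59 (adjusted p = 0.0133) in KI cells. Its level was 0.533 to 4.86 CPM in WT LIF/2i, 9.42 and 22.6 in WT LIF, 4.70 to 11.2 in KI LIF/2i and 23.2 to 79.6 in KI LIF. Il6ra, the ligand-binding chain for interleukin-6, went the other way, from 13.99 to 21.3 CPM in WT LIF/2i to 2.12 and 2.22 in WT LIF, and from 5.04 to 17.1 in KI LIF/2i to at most 1.73 in KI LIF, where 1 library was at 0. Its log2 change was -3.01 ± 0.64 in WT (adjusted p = 0.0102) and -3.25 ± 0.66 in KI cells (0.0109), and the size of the latter depends on the prior count of the fit.

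Osm, the gene of the ligand oncostatin M, fell in WT cells, from 2.74 to 13.4 CPM in LIF/2i to 0.152 and 0.633 in LIF (log2 -4.59 ± 0.89, edgeR, adjusted p = 0.0068). These LIF levels are near 0, so the size of the change rests on few counts. Stat4, a relative of Stat3 best known from lymphocytes, rose in WT cells from between 4.58 and 10.9 CPM to 22.0 and 33.7 (1.88 ± 0.38, adjusted p = 0.0082). Neither passed in KI cells, and neither passed the test of the difference between genotypes. Cntfr lost its call in WT cells without LIF/2i replicate 1 or 2 or LIF replicate 2, and in KI cells without LIF replicate 2 or 3. Il6ra lost it without WT LIF replicate 2 or the WT LIF pair and without KI LIF replicate 2, Osm without WT LIF replicate 2, and Stat4 without the pair. Runs without WT LIF replicate 2 or without the pair leave 1 WT LIF sample. The highest adjusted p in KI cells was 0.0600 for Cntfr and 0.0552 for Il6ra (edgeR).

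A further 20 genes known to respond to LIF or STAT3 in ES cells were all tested. Mcl1, a survival factor of the Bcl2 family, was the only one to pass the test between genotypes. In LIF/2i it was lower in KI cells, at 298 to 314 CPM against 421 to 611 in WT (log2 -0.79 ± 0.16 (SE), adjusted p = 0.0325, edgeR), where 1.24% of all genes passed as lower. It was called in 13 of 18 alternatives, and not without WT LIF/2i replicate 2 or 3, KI LIF/2i replicate 2 or 3 or KI LIF replicate 3 (adjusted p up to 0.103). In LIF, 0 of 20 passed between genotypes, where 0.144% of all genes did, and 0 of 20 passed the interaction, where 0% did.

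Between media the responsive genes moved in both directions. In WT cells 3 of 20 rose (Junb, Myc and Gadd45g), where 6.3% of all genes did, and 5 of 20 fell (Klf4, Tfcp2l1, Sgk1, Pramel7 and Icam1), where 6.65% did. In KI cells 3 of 20 rose (Myc, Cebpd and Dnmt3l), where 4.05% of all genes did, and 6 of 20 fell (Klf5, Tfcp2l1, Sgk1, Pramel7, Pramel6 and Icam1), where 5% did. The list was drawn up with earlier results of these data known, so these counts are a description. Across the same change of medium, primitive endoderm and trophectoderm marker sums were higher in WT LIF, and fibroblast marker sums were higher in LIF in both genotypes, with the values given above; their part in these changes was not tested. The list's median log2 difference was -0.22 in WT and 0.04 in KI cells, against 0.01 and -0.03 for all genes.

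Among the genes that fell, Tfcp2l1, a naive pluripotency transcription factor and direct Stat3 target, went from between 481 and 897 CPM to 182 and 201 in WT cells and from between 614 and 805 to between 112 and 153 in KI cells. Its log2 change was -1.98 ± 0.26 (SE, adjusted p = 0.0011, edgeR) in WT and -2.41 ± 0.23 (adjusted p = 0.00032) in KI cells. Klf4, another naive factor and Stat3 target, fell by 0.93 ± 0.18 in WT cells (adjusted p = 0.0064), and was at -0.42 ± 0.16 in KI cells without passing (adjusted p = 0.123). Klf5, its relative, fell by 1.14 ± 0.24 in KI cells (adjusted p = 0.0122) and was at -0.46 ± 0.26 in WT cells (0.279).

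Sgk1, a serum- and glucocorticoid-regulated kinase, fell from between 386 and 515 CPM to 188 and 209 in WT cells (-1.21 ± 0.22) and from between 516 and 719 to between 158 and 257 in KI cells (-1.70 ± 0.20). Icam1, a cell adhesion molecule, fell by 1.12 ± 0.16 in WT and by 0.63 ± 0.14 in KI cells. Pramel7 and Pramel6, PRAME-like proteins, fell to under 5 CPM in KI LIF, where at least 1 library was at 0 for each, so their fitted changes depend on the prior count. Pramel6 was at -1.80 ± 0.56 in WT cells (adjusted p = 0.0532). Pramel7 was at 23.0 to 33.4 CPM in WT LIF/2i and at 4.99 and 6.97 in WT LIF.

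Among the genes that rose, Myc, a growth-promoting transcription factor, went from between 1.82 and 6.79 CPM to 29.8 and 36.4 in WT cells (log2 2.98 ± 0.46 (SE), adjusted p = 0.0023) and from between 7.59 and 18.1 to between 34.6 and 65.6 in KI cells (1.96 ± 0.39, adjusted p = 0.0103). Junb, an AP-1 subunit and early response gene, rose in WT cells from between 7.46 and 13.1 CPM to 26.1 and 29.6 (1.54 ± 0.35), and was at 13.6 to 31.2 in KI LIF/2i and 18.3 to 28.6 in KI LIF. Gadd45g, a growth arrest and stress response gene, rose by 3.4 ± 0.85 in WT cells, from between 0.632 and 1.82 CPM to 7.12 and 16.4. It was at 2.53 ± 0.75 in KI cells (edgeR, adjusted p = 0.0555). Cebpd, a C/EBP transcription factor, rose by 2.08 ± 0.49 in KI cells, from between 1.34 and 3.45 CPM to between 6.23 and 16.5. It was at 1.57 ± 0.56 in WT cells (adjusted p = 0.0880). Both genes were low in LIF/2i, so the sizes of these changes rest on few counts. Dnmt3l, a cofactor of the de novo DNA methyltransferases, rose by 2.20 ± 0.62 in KI cells (edgeR, adjusted p = 0.0454), a call that held in 9 of 19 alternatives. In WT cells Dnmt3l was at 2.10 ± 0.66 (adjusted p = 0.0564). No gene of this list passed the test of a difference between the genotypes' responses.

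Several of these calls ended when a single library or the agreeing WT LIF pair was left out, with no change of direction. Runs without WT LIF replicate 2 or without that pair leave 1 WT LIF sample. In WT cells Klf4 and Sgk1 lost theirs without LIF replicate 2, Gadd45g without LIF/2i replicate 1 or 2 or LIF replicate 2, Junb without any of these or the agreeing LIF pair, and Pramel7 without any of these or LIF/2i replicate 3. In KI cells Klf5, Pramel7 and Icam1 lost theirs without LIF replicate 2 or 3, Myc without LIF replicate 3, and Cebpd without LIF replicate 2 or 3 or LIF/2i replicate 3. Dnmt3l lost its call without any 1 of the 6 KI libraries, and also without WT LIF replicate 2 or the WT LIF pair. Its call also ended with no filter on low counts, the run that gave its highest adjusted p. In KI cells the highest adjusted p over the alternatives (edgeR) was 0.0631 for Klf5, 0.0975 for Pramel7 and 0.0806 for Icam1. It was 0.0537 for Myc, 0.101 for Cebpd and 0.161 for Dnmt3l.

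**Figure D5:**
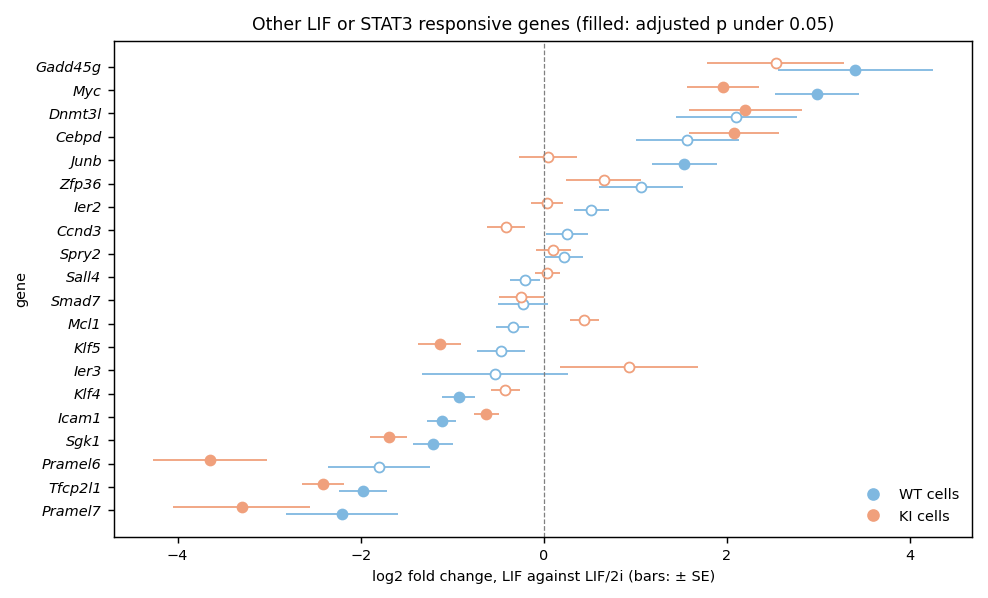
Log2 fold change of LIF against LIF/2i (x axis, bars ± SE) for the 20 other LIF or STAT3 responsive genes (y axis), with 1 point each for WT and KI cells and filled points for an adjusted p under 0.05 (edgeR). Myc rose and Tfcp2l1, Sgk1, Pramel7 and Icam1 fell in both genotypes.

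Genes whose pattern over the samples was most like that of Socs3 or Stat3 were found by the Pearson correlation of log2 CPM over the 11 samples, among 10345 genes. For Socs3 they were Nptxr (0.94), Tle6 (0.90) and Arhgap45 (0.90). For Stat3 they were Bcl7a (0.88), Nefm (0.88) and Dipk2a (0.86). The samples share their libraries and depth, and the values only describe them.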

How the data were processed

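RNA-seq counts of mouse ES cells (WT and KI, LIF/2i and LIF, 12 libraries) were used. The authors deposited raw counts per gene, without normalization, over the coding sequence of 1 transcript per gene, per the file headers. RNA came from the supernatant of lysates of cycloheximide-washed cells, was depleted of ribosomal RNA and fragmented, per the labels' protocols. Tools listed in the submitters' processing notes are Bowtie 1.3.0, cutadapt 3.4 and UMI-tools 1.0.1. The sources used here give neither their roles nor the build, and not how strand and multiply matching reads were treated. Transcripts were located in GENCODE M21 (GRCm38), where 22155 of 22416 were found. RefSeq promoter windows matched all 9 genes.

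The members and lists were chosen with earlier results of these data known. The genes named are the 9 members and those genes of the 2 lists that passed in a comparison. Genes passing edgeR's filterByExpr (minimum count 10; 13229) were scaled by TMM. edgeR 4.0.16 (R 4.3.3) fitted 1 mean per group over 11 samples (robust glmQLFit). Two-sided quasi-likelihood F tests of each contrast were adjusted over all tested genes (Benjamini-Hochberg, 0.05). Standard errors were derived from the F statistic. The script was tested on simulated data. Alternatives were DESeq2 1.42.0, its size factors, no filter, 12 libraries counted separately, a replicate block and leaving out libraries. The block among KI libraries alone was added after seeing the data.

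The groups share replicate numbers. Deviations of same-numbered samples from their group means correlated at 0.51, 0.39 and 0.22 in KI cells across media. Differently numbered KI samples ran from -0.43 to 0.22. The block among KI libraries rests on these values and not on the labels, and the reported fit used no block. Each of the other group pairs had at least 1 same-numbered correlation under 0.1.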

Additional observations from a re-analysis of the deposited data

How the results depend on the processing

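The number of the 9 genes called between media rested on single libraries or the agreeing WT LIF pair. For LIF against LIF/2i in WT cells it was 1 as reported and 0 to 1 when libraries were left out; the 0 came without WT LIF/2i replicate 1 or 2, WT LIF replicate 2, or the agreeing WT LIF pair. Leaving out that pair leaves 1 WT LIF sample, and so does leaving out WT LIF replicate 2, because replicates 1 and 3 enter as their mean. That sample is assumed to vary like the other groups. In KI cells the number was 1 as reported, 2 with DESeq2 and 0 to 2 when libraries were left out. Bcl3 kept its direction in all alternatives (log2 -1.19 to -0.84 in WT, -1.14 to -0.73 in KI cells) and its call in 14 of 18 and 15 of 19. The numbers called between genotypes and in the interaction stayed at 0 in all alternatives run.

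With the replicate block over all 12 libraries, Bcl3 was called in both media comparisons (log2 -0.91, adjusted p = 0.0116 in WT and -0.97, adjusted p = 0.0160 in KI cells), and with the block among KI libraries alone it was -0.97 (adjusted p = 0.0081). Neither block changed the call of any of the 9 genes. Among the 2 lists, Dnmt3l in KI cells lost its call with the KI block (adjusted p = 0.0626). Of the 24 calls in the 2 lists, 6 held under every alternative run (Tfcp2l1 in both genotypes, Myc and Icam1 in WT, Sgk1 and Pramel6 in KI cells), and none reversed.

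The values that changed sign were all uncalled as reported, and the cause was not tested. For KI against WT in LIF/2i, Lifr became -0.0085 with DESeq2, -0.0073 with its size factors in edgeR and -0.0239 with the replicate block, and Pim1 became -0.0035 with that block. For KI against WT in LIF, Lifr became -0.0048 with 12 libraries counted separately and -0.035 with the block. For LIF against LIF/2i in WT cells, Pim3 became -0.0148 with 12 libraries and -0.0187 with the block. Interaction values were followed only for Socs3, Bcl3, Pim1 and Gbx2. Among these, that of Bcl3 became 0.0189 with DESeq2 and 0.0188 with its size factors.

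Leaving out 1 library at a time, or the agreeing WT LIF pair, gave these ranges for the values that changed sign. For KI against WT in LIF/2i they were -0.19 to 0.15 for Lifr, -0.0366 to 0.20 for Il6st, -0.0095 to 0.11 for Jak1, -0.13 to 0.28 for Bcl3, -0.23 to 0.23 for Pim1 and -0.60 to 0.41 for Gbx2. For KI against WT in LIF they were -0.29 to 0.18 for Lifr, -0.0304 to 0.15 for Jak1 and -0.0189 to 0.30 for Bcl3. For LIF against LIF/2i in WT cells they were -0.25 to 0.12 for Socs3, -0.0863 to 0.0932 for Pim3 and -0.24 to 0.63 for Gbx2. In KI cells they were -0.16 to 0.34 for Lifr, -0.0022 to 0.47 for Pim1 and -0.28 to 0.0361 for Pim3. For the interaction, followed only for Socs3, Bcl3, Pim1 and Gbx2, Bcl3 ran from -0.16 to 0.27. At 22 to 281 counts per library, Gbx2 was the least precisely measured of the 9 genes.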
